A study of Mus musculus with 12 samples.

Results

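Histone transcripts were examined in 12 single cultured cardiac progenitor cells (CPCs). The members were the 84 of 21729 genes in the count table whose symbol starts with Hist1h to Hist4h, H2af, H3f3, H1f or Hils. Of these, 68 carry a Hist symbol and are called replication-dependent here, 12 are replacement histones (the H2af genes, H3f3a, H3f3b and H1f0) and the other 4 are H1fx, Hils1, H1foo and H1fnt. The cells came from the hearts of FVB female mice aged 12 weeks, were depleted of blood lineages, were sorted for c-Kit and had been grown on gelatin through 5 passages in medium with serum, LIF, bFGF and EGF. The study asked what culture does to the transcriptome of such cells. All 12 cells form 1 group with no treatment or genotype to compare, and fresh cells were not analysed here. The labels name neither animal nor culture for a cell, so they count as 1 sample, their spread describes these cells alone, and no test was made across them.

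Histones are the proteins that DNA is wrapped around. H2A, H2B, H3 and H4 form the core of the nucleosome and H1 sits on the linker between nucleosomes. A cell that copies its DNA needs new histones for the new strands, and the replication-dependent genes, which sit in clusters and have no introns as a rule, supply them during S phase. Their mRNAs are unusual because most end in a short stem-loop that is bound by the protein Slbp, in place of a poly(A) tail. Replacement histones are made, as a rule, from ordinary polyadenylated mRNAs at any phase of the cycle. They replace core or linker histones in chromatin that is not being copied. The libraries were made from poly(A) RNA with a kit that primes on poly(A), so a replication-dependent level given below is that of the part of its mRNA that was captured, and the rest cannot be told apart from absence.

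The total count per cell ran from 3453708 to 5690184, and the limit that a count of 0 allows, 3 counts, was 0.527 to 0.869 CPM by cell. CPM is the count scaled to a total of 1000000 per cell. The libraries carry no molecular identifiers, and intervals and floors cover counting error only. Cell 10 stood apart with an endothelial marker sum of 9410 CPM, the next highest being 58.3 CPM, and cell 11 with a mural marker sum of 3726 CPM, the next highest being 172 CPM. Cell 12 had the highest fibroblast marker sum, 6275 CPM, where the next was 2840 CPM, and cell 3 the highest haematopoietic marker sum, 128 CPM, where the next was 69.6 CPM. Cell 3 also had the lowest replacement sum and the highest replication-dependent sum. The sums, their ratio and their correlations are given again without cells 3 and 10, and over the values found when each cell was left out in turn. Kit was counted in 1 cell, at 3.94 CPM in cell 10. Of 3 cardiomyocyte markers, Myh6 and Actc1 were at 0 in all 12 cells and Tnnt2 had a median of 3.34 CPM, its highest values being 86.6 CPM (cell 12) and 59.1 CPM. The hearts were labelled female, but the Y-linked genes Ddx3y and Eif2s3y had counts in 12 of 12 cells.

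The stem-loops of the members on which the results turn are shown first, because the presence of sequence past the stem-loop bears on how such an mRNA can enter a poly(A) library. A stem-loop was called where 6 bases pair with 6 bases around a loop of 4 (TNTN), the stem starting with GG and ending with CC and G-T pairs allowed, on the sense strand of an annotated transcript. Capitals mark the stem-loop and lower case the 5 bases on each side. The sequences are from the GENCODE vM21 transcripts, on GRCm38.
Hist1h4d: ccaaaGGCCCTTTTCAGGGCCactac
Hist1h4h: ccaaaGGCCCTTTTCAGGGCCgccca
Hist1h4i: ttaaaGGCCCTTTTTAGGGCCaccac
Hist1h1c: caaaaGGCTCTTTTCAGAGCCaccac
Hist1h1e: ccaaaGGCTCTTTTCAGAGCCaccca
H2afx: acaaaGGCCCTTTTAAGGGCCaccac

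The stem-loop of Hist1h4d lies at chr13:23581950-23581965 on the plus strand, that of Hist1h1c at chr13:23739512-23739527 on the plus strand and that of Hist1h1e at chr13:23621782-23621797 on the minus strand. The stem differed by class. The form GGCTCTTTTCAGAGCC was found in 26 genes of the H1, H2A, H2B and H3 classes, and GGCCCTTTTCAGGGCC in 7 genes, which were H4 genes. In all, 46 of 68 replication-dependent genes had a match, as did 2.03% of the protein-coding genes that are no members. H2afx, a replacement gene that marks sites of DNA breaks when phosphorylated, had one too, followed by 822 further bases.

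The annotated 3′ ends fell into 3 sets. In 23 genes the transcript ended within 100 bases of the stem-loop, by 3 to 74 bases. In another 23 genes it ran on for 108 to 4884 bases, and 12 of these held AATAAA or ATTAAA, the signal for polyadenylation, in the last 50 bases. The remaining 22 genes had no match, but 15 of them are annotated to fewer than 10 bases past the coding part and could not show one. The polyadenylation signal was found in 2 of these 22 genes and in 2 of the 23 that end near the stem-loop. Its share over all genes was not measured. Hist1h2bc, Hist1h2bq, Hist1h2br and Hist2h2be were the 4 genes without a match whose annotation goes on for at least 50 bases after the coding part. For Hist1h2bc, an H2B gene at chr13:23684199-23692908 on the plus strand, that stretch was 742 bases of a transcript of 1156 bases. These 4 were named after their values were seen. The search used spliced transcripts, and Hist1h2bc, Hist1h2bq and Hist1h2br span more bases than their exons hold. A stem-loop within an intron of their annotation could therefore not show.

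The captured replication-dependent signal lay mostly in genes whose annotation extends past, or lacks, the stem-loop. The genes that end within 100 bases of the stem-loop gave 3.78% of the summed mean CPM of all 68, the genes with a longer end gave 29.6% and the genes without a match gave 66.6%, most of it from Hist1h2bc. Per gene and kilobase, the medians of the mean levels were 0.292, 0.658 and 0.202 CPM per kb in the same order, in another ranking than the sums. The sums rested on a few genes in each set. The sum over the genes that end near the stem-loop had a median of 5.56 CPM per cell, with a range of 1.08 to 34.0 CPM. Reads were kept where they mapped to 1 place, and the median share of 75-base stretches that occur in no other gene's transcripts was 44.6% in these genes, 86.1% in the genes with a longer end and 30.7% in those without a match. This share takes each stretch alone, although the reads were sequenced in pairs of 75 bases. It moves with the sets, and the part of uncounted reads in the differences was not tested.

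**Figure D1:**
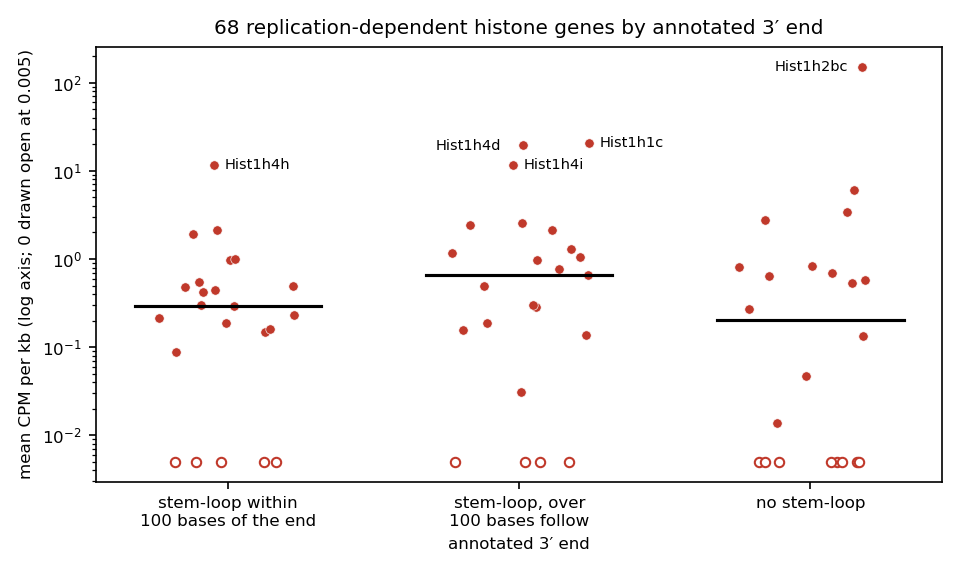
Mean CPM per kilobase over 12 cells (log axis) of the 68 replication-dependent histone genes, by annotated 3′ end: 23 genes that end within 100 bases of the stem-loop, 23 that run on for longer and 22 without a stem-loop match. Each point is 1 gene, open points are genes at 0 in every cell and lines are medians; Hist1h2bc stands at 151 CPM per kb, above Hist1h1c at 20.8.

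Many histone genes were counted somewhere, but few replication-dependent ones in every cell. At least 1 count in at least 1 cell was found for 51 of 68 replication-dependent genes, 9 of 12 replacement genes and 3 of the other 4 (75% in each class), where 66.6% of all genes had one. The 3 replacement genes at 0 were H2afb1, H2afb2 and H2afb3, which are testis genes of the X chromosome, and H1fnt, a linker histone of sperm cells, was at 0 as well. A count in every cell was found for 3 replication-dependent genes, Hist1h2bc, Hist1h1c and Hist1h4d, and for 8 replacement genes, where 35.3% of all genes had one. H2afy2 was the one replacement gene with counts that missed a cell, namely cell 3. A mean of at least 5 CPM was reached by 5 replication-dependent genes and 9 replacement genes, where 44.8% of all genes reached it.

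The number of replication-dependent genes counted in a cell had a median of 20, with 13 in cells 6 and 10 and 38 in cell 2. As a share of the 68 genes this was a median of 29.4% and a range of 19.1% to 55.9%, where a median of 51.9% of all genes was counted in a cell, with a range of 46.1% in cell 8 to 55.0% in cell 1. Cells 1 to 4 had the most, at 34, 38, 32 and 29. Over all genes the 4 highest were cells 1, 6, 2 and 4. When each cell was thinned to the lowest total, the median was 18 and the range 12 to 37, and cells 1 to 4 again had the 4 highest numbers. Without cells 3 and 10, 51 replication-dependent genes still had a count.

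Many replication-dependent genes resemble each other in sequence. The median share of unique 75-base stretches was 62.3% in replication-dependent genes and 97.8% in replacement genes, and 27 replication-dependent genes but no replacement gene lay under 50%. At 50% or more, 32 of 41 replication-dependent genes were counted and 17 had a mean of at least 1 CPM, and under 50% these numbers were 19 and 1 of 27. The median of the mean levels per length was however the same in both, at 0.298 CPM per kb, and the part of sequence similarity in the counts was not tested. Hist1h2bc was unique over 72.9% of its stretches and Hist1h4d over 96.3%. The lowest replacement gene was H2afz, at 71.2%. Reads that fit more than 1 place were not counted for either class.

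Hist1h2bc was the replication-dependent transcript with the highest mean and the most uneven for its level. It encodes a core histone of the H2B class. Its lowest level was 1.47 CPM in cell 9, its median was 113 CPM and its highest level was 842 CPM in cell 3, where 3193 reads were counted. Cell 7 followed with 387 CPM and cell 1 with 225 CPM. Cell 3 was also the highest in the haematopoietic markers, whose part in this level was not tested. Cells 5, 6, 8 and 9 had less than 15 CPM, and the other 8 cells had 58.5 CPM or more. Its coefficient of variation (CV, the SD over cells divided by the mean) was 1.37, and the median CV of genes of like mean, in a running window over all genes ranked by mean, was 0.376, so it varied 3.64 times as much as genes at its level. Without cell 3 the CV was 1.04 and that ratio 2.55.

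Hist1h1c, a linker histone of the H1 class at chr13:23738808-23740367, was at 0.210 CPM in cell 9, at a median of 19.5 CPM and at 150 CPM in cell 10. Cells 11 and 7 came next, at 54.5 and 54.2 CPM. Like Hist1h2bc, it was low in cells 5, 6, 8 and 9, at less than 5 CPM in each. The ranks of both genes over the 12 cells went together with a Spearman rho of 0.608. Its CV was 1.28, or 2.31 times that of genes of like mean. Cell 10, which held the endothelial transcripts, gave its highest value, and cell 11 its second highest. Without cell 10 the CV was 0.890, or 1.47 times that of genes of like mean, and without cells 10 and 11 it was 0.913, or 1.46 times.

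Hist1h4d, a core histone of the H4 class at chr13:23581598-23582735, had another order. It was at 1.58 CPM in cell 3, at a median of 8.37 CPM and at 78.9 CPM in cell 8, with 63.4 CPM in cell 1 and 56.8 CPM in cell 2. Cell 5 had 21.5 CPM, and no other cell was above 12 CPM. The cell with the most Hist1h2bc was thus the one with the least Hist1h4d, and rho between these genes was -0.531. Hist1h1e, a second linker histone, was highest in the same 3 cells, at 16.05 CPM in cell 2, 12.4 CPM in cell 8 and 9.27 CPM in cell 1, and was at 0 in cells 7, 10 and 11. Its rho with Hist1h4d was 0.803. Hist1h1e overlaps Hist1h2be and Gm11398 on the same strand, so reads in the shared stretch cannot be assigned to 1 of these genes.

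The other replication-dependent genes that reached 5 CPM were H4 genes. Hist1h4i had a median of 6.17 CPM and a range from 0 in cell 6 to 22.6 CPM in cell 7, and its rho with Hist1h2bc was 0.720. Its CV was 0.823, close to the 0.863 of genes of like mean. Hist1h4h had a median of 2.01 CPM and reached 26.1 CPM in cell 1 and 17.4 CPM in cell 3, and did not pass 7.91 CPM elsewhere. The 3 most abundant H4 genes therefore had different orders over the cells. The remaining 6 of the 12 most abundant were Hist1h2be, Hist1h1b, Hist1h2al, Hist1h2ae, Hist2h2be and Hist1h2bg, with mean levels of 1.58 to 2.92 CPM. Hist1h2al is annotated as a processed pseudogene. Among the 41 genes of the class counted in at least 3 cells, Hist1h3h had the largest CV, at 2.47, on 20 counts in 3 cells.

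**Figure D2:**
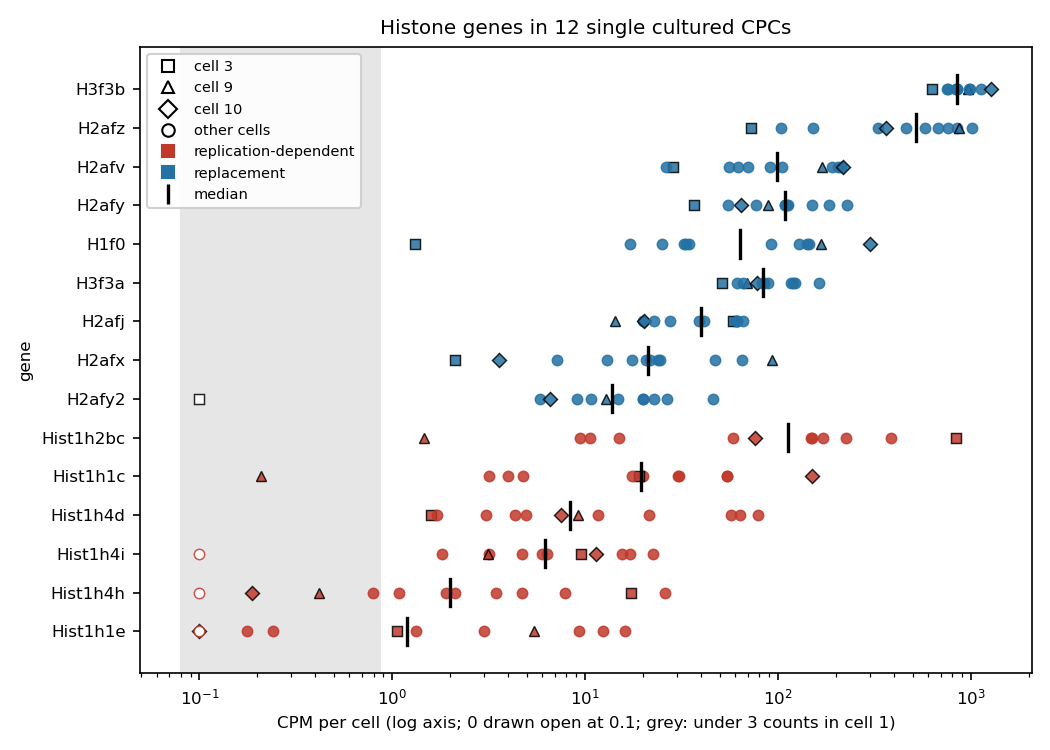
CPM per cell (log axis) of Hist1h1e and the 14 histone genes that averaged 5 CPM or more; each point is 1 cell, bars are medians, and squares, triangles and diamonds mark cells 3, 9 and 10. H3f3b spans 632 to 1279 CPM, whereas Hist1h2bc spans 1.47 to 842 CPM with cell 9 lowest and cell 3 highest.

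Among the replacement genes, the H3.3 genes were the steadiest. H3f3b, which encodes the H3 variant laid down outside replication, was at 632 CPM in cell 3, at a median of 851 CPM and at 1279 CPM in cell 10. Its CV of 0.194 was 0.539 times that of the genes of like mean. H3f3a, which encodes the same protein from another chromosome, had a lowest level of 51.2 CPM in cell 3, a median of 83.5 CPM and a highest level of 164 CPM in cell 1, with a CV of 0.352, or 0.840 times that of genes of like mean. Per length, H3f3b was also the higher of the pair, at a mean level of 304 CPM per kb against 26.2 CPM per kb. Their ranks over cells were not alike, with rho at -0.224.

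H2afz, the gene of the H2A.Z variant found at promoters, was the replacement gene with the widest range in absolute terms. It was at 72.8 CPM in cell 3, at a median of 522 CPM and at 1015 CPM in cell 1. Cells 3, 7 and 11 had at most 152 CPM and the other cells at least 329 CPM. Its CV was 0.618, or 1.78 times that of genes of like mean. H2afv, which encodes a second H2A.Z protein, was at 26.3 CPM in cell 11, at a median of 98.4 CPM and at 218 CPM in cell 10. Cells 3 and 11 were the lowest for it as well, and its rho with H2afz was 0.615.

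The macroH2A genes H2afy and H2afy2, whose products carry a large extra domain and are found in silent chromatin, had medians of 109 and 13.8 CPM. Both were lowest in cell 3, at 36.7 CPM and 0, and highest in cell 8, at 227 and 46.0 CPM. H2afj was at 38.8 CPM or more in cells 1 to 7 and at 27.4 CPM or less in cells 8 to 12, with 65.7 CPM as its highest level in cell 2. Its rho was -0.538 with the total count and 0.650 with the number of genes detected in a cell. The part of these in its levels was not tested. H2afx was highest in cell 9, at 92.9 CPM, followed by 65.4 CPM in cell 1, and lowest in cell 3, at 2.11 CPM. It had the largest CV of the replacement genes, at 0.962.

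H1f0, the replacement linker histone known from resting and differentiated cells, was at 1.32 CPM in cell 3, at a median of 63.3 CPM and at 301 CPM in cell 10. Cells 1 to 6 had at most 34.5 CPM and cells 7 to 12 at least 92.2 CPM, so the values fell into separate ranges. Its CV of 0.939 was 2.20 times that of genes of like mean. The number of genes detected was 10022 to 10181 in cells 7, 8, 10, 11 and 12. It was 11216 to 11950 in the other cells, cell 9 among them. The rho of H1f0 was 0.629 with the total count and -0.622 with the number of genes detected. The part of these in its levels was not tested.

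Of the other 4 members, H1fx, a linker histone gene without introns, was counted in 11 cells at a median of 1.89 CPM and at most 5.50 CPM. Hils1 had 5 counts, all in cell 1.

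Variation between cells was then compared with that of all genes at the same level, because rare transcripts vary more by counting alone. Over the 41 replication-dependent genes counted in at least 3 cells the median CV was 1.64, over the 9 replacement genes it was 0.618 and over all 12366 genes it was 0.656. Relative to genes of like mean, however, the median ratio was 0.953 for the replication-dependent genes, with 18 of 41 above 1, and 1.15 for the replacement genes, with 6 of 9 above 1. The high CV of the class thus went with its low counts. Hist1h2bc, Hist1h1c and Hist1h4d stood out at ratios of 3.64, 2.31 and 2.10, of which the first was 2.77 and the second 1.59 without cells 3 and 10.

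**Figure D3:**
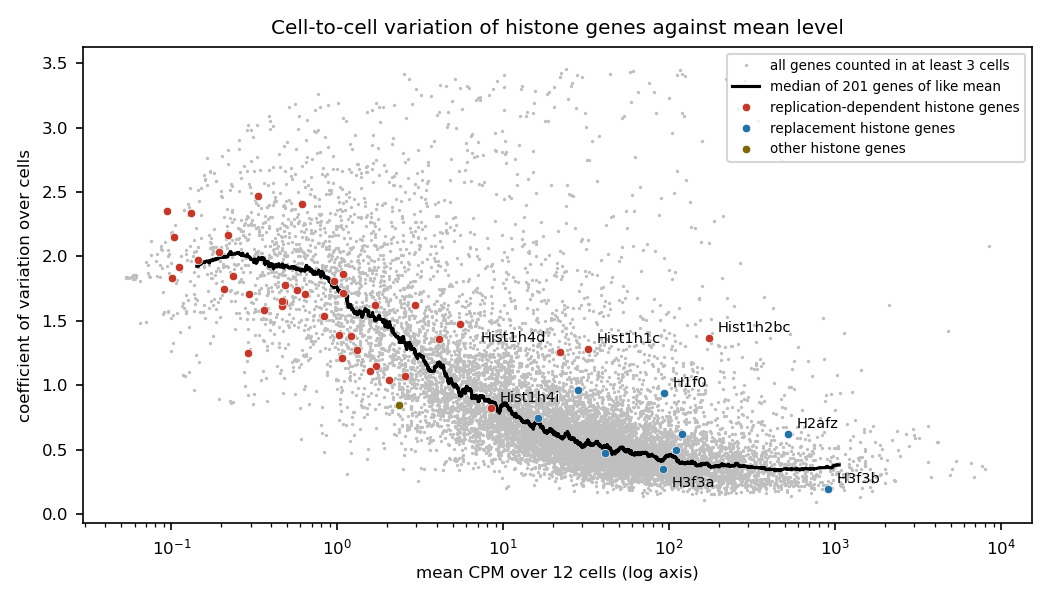
Coefficient of variation over 12 cells against mean CPM (log axis) for genes counted in at least 3 cells (grey), with the running median of genes of like mean (black), replication-dependent histone genes (red), replacement histone genes (blue) and H1fx (brown). Most red points lie near the line at low means, while Hist1h2bc at 1.37 lies far above it and H3f3b at 0.194 below it.

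Summed over its genes, the replication-dependent class was at 276 ± 260 CPM (SD, 12 cells), with a median of 243 CPM, which was 184 CPM without cells 3 and 10. Cell 9 was lowest, at 31.0 CPM (exact 95% Poisson interval 26.2 to 36.4), and cell 3 highest, at 960 CPM (929 to 992). Cells 7 and 1 followed at 497 and 407 CPM. Hist1h2bc alone gave a median of 49.1% of the sum, from 4.73% in cell 9 to 87.7% in cell 3. In cell 10 Hist1h1c gave the largest share, 59.7%, and in cell 8 Hist1h4d gave 58.8%. The gene that made up most of the captured signal was therefore not the same from cell to cell. Without Hist1h2bc the sum was lowest in cell 6 (22.8 CPM) and highest in cell 1 (182 CPM).

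The replacement class was at 1926 ± 542 CPM (SD, 12 cells), with a median of 1966 CPM, both over all cells and without cells 3 and 10, a lowest level of 883 CPM in cell 3 (854 to 914) and a highest of 2663 CPM in cell 8 (2620 to 2707). H3f3b and H2afz held most of it.

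**Figure D4:**
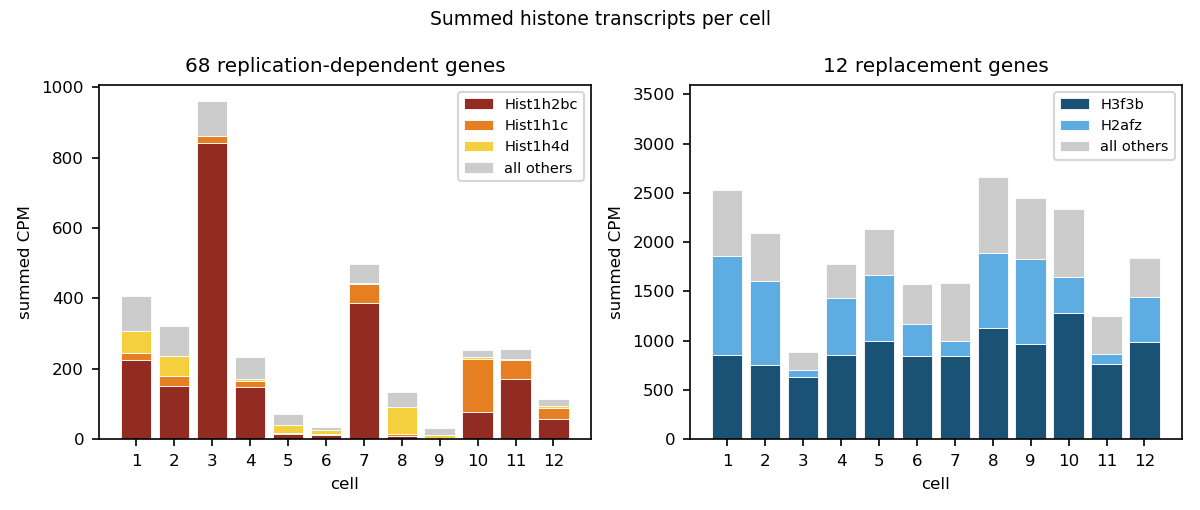
Summed CPM of the 68 replication-dependent (left) and 12 replacement (right) histone genes in each of the 12 cells, with the leading genes in colour and all others in grey. Cell 3 has the tallest bar on the left, 960 CPM, of which 87.7% is Hist1h2bc, and the shortest on the right, 883 CPM.

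For a comparison of the classes each gene was divided by its exon length. The replacement sum per kilobase was a median of 4.14 times the replication-dependent sum per kilobase, and it was higher in 11 of 12 cells. The ratio was 0.369 in cell 3, 1.30 in cell 7 and 31.4 in cell 9, and its median was 5.30 without cells 3 and 10. With no division by length the median ratio was 8.44. By type of histone, the replacement H3 genes were higher per kilobase than the replication-dependent H3 genes in 12 of 12 cells, with a median ratio of 47.5 over the 11 cells in which the latter had a count, and a range of 11.9 in cell 3 to 162 in cell 8. For H2A the median ratio was 34.6, with a range of 4.86 in cell 3 to 336 in cell 9. For H1 it was 1.44, with a range of 0.0394 in cell 3 to 9.45 in cell 9, and H1f0 was the higher in 9 of 12 cells. H2B and H4 have no replacement member here, and their replication-dependent sums had medians of 103 and 32.6 CPM per kb, against 18.0 for H1, 11.7 for H2A and 5.08 for H3. The core histones are used in equal amounts in the nucleosome, but their captured mRNA was not equal in these libraries.

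Next, each class was related to replication. Mcm2, Mcm4, Mcm5 and Mcm6 encode subunits of the helicase that opens DNA at origins, and their summed level was lowest in cell 3 (31.4 CPM), had a median of 199 CPM and was highest in cell 2 (1208 CPM). Cells 1, 2 and 12 were at 1035 CPM or more, cells 8 and 9 were at 610 and 618 CPM, and the other 7 were at 236 CPM or less. All correlations below are over the same 12 cells, which share a library method and differ in depth, and are descriptions.

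The replication-dependent sum did not go up with the Mcm sum. Spearman's rho was -0.350 and Pearson's r -0.219. Leaving out each cell in turn gave rho from -0.555 (without cell 2) to -0.155 (without cell 3), and without cells 3 and 10 it was -0.067. Without the 2 cells farthest from the median Mcm sum, cells 2 and 12, rho was -0.552 and r -0.220. The sign rested on 1 gene. Without Hist1h2bc rho was 0.028 (r 0.238), and without Hist1h2bc and Hist1h1c it was 0.210 (r 0.476), an alternative chosen after the data had been seen. In that smaller sum cells 1, 2 and 8 were highest, at 162, 142 and 121 CPM, but cell 3, with the lowest Mcm sum, followed at 99.4 CPM, and cell 12, with the second highest Mcm sum, was at 24.1 CPM.

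**Figure D5:**
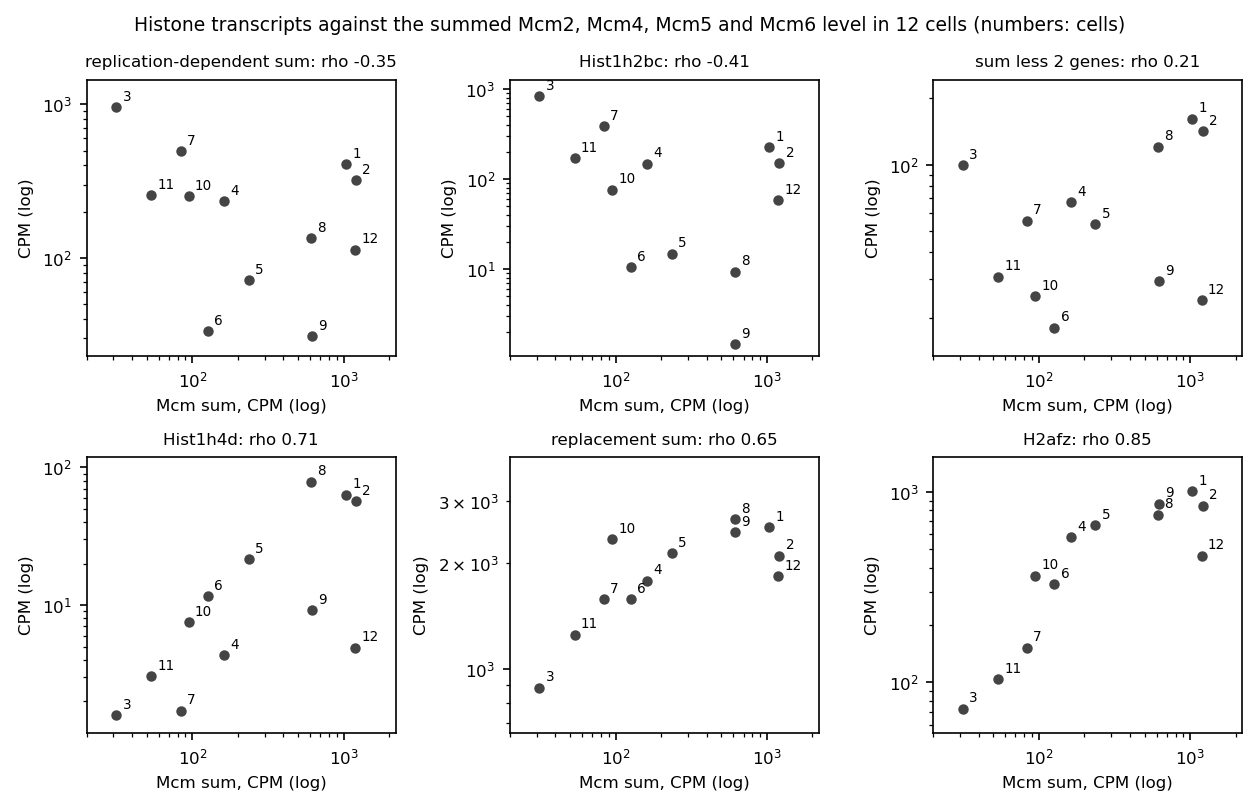
Levels in CPM against the summed CPM of Mcm2, Mcm4, Mcm5 and Mcm6 (both log axes) in 12 cells, numbered, for the replication-dependent sum, Hist1h2bc, the sum less 2 genes (Hist1h2bc and Hist1h1c), Hist1h4d, the replacement sum and H2afz, with Spearman's rho above each panel. H2afz climbs with the Mcm sum (0.853) while Hist1h2bc does not (-0.413), and cell 12 lies under the run of the other cells for Hist1h4d and H2afz.

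Single genes behaved differently. Among the 41 replication-dependent genes counted in at least 3 cells, 7 had a rho of at least 0.5 with the Mcm sum, namely Hist1h1a, Hist1h1e, Hist1h2ak, Hist1h2ao, Hist1h2ap, Hist1h4d and Hist2h4, which is 17.1%, where 11.9% of all genes reached that value. At -0.5 or lower were 3 (Hist1h2ac, Hist1h2bq and Hist3h2a), or 7.32%, where 4.29% of all genes were. At a limit of 0.6, 3 of the 41 remained (Hist1h1e, Hist1h2ak and Hist1h4d), or 7.32%, where 7.21% of all genes did, and at 0.4 there were 10, or 24.4%, where 18.3% of all genes were. Without cells 3 and 10, 9 of 35 replication-dependent genes reached 0.5, or 25.7%, where 10.3% of all genes did. Most of these genes are rare, and at a mean of at least 5 CPM over the 12 cells Hist1h4d was the 1 of 5 that reached 0.5, where 12.9% of genes did.

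Hist1h4d had a rho of 0.706 with the Mcm sum (r 0.584), which was 0.618 to 0.845 with each cell left out. Cell 12, the highest in the fibroblast markers, was the exception, with 4.92 CPM at a Mcm sum of 1191 CPM, and the highest rho was that without it. Hist1h1e had a rho of 0.669 (0.569 to 0.853). Hist1h2bc had -0.413 (-0.591 to -0.236), the lowest among the 5 replication-dependent genes of at least 5 CPM, of which none was at -0.5 or lower, where 4.63% of genes were. Hist1h1c had -0.273 (-0.409 to -0.127). These genes sit in 1 stretch, chr13:23531050-23934851, with 31 replication-dependent genes of which 25 were counted.

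The replacement sum did go up with the Mcm sum, with rho 0.650 (r 0.514), 0.545 to 0.745 with each cell left out and 0.661 without cells 3 and 10. Over all 12 cells most of that was H2afz, which had rho 0.853 (r 0.704; 0.809 to 0.964 with each cell left out). Without H2afz the replacement sum had rho 0.336, but 0.624 when cells 2 and 12 were also left out. Without those 2 cells H2afz was at 0.988, H2afx at 0.661, H2afv at 0.648 and H3f3b at 0.588. The other replacement genes of at least 5 CPM stayed under 0.5. Over all 12 cells H2afz was the 1 of 9 replacement genes that reached 0.5, or 11.1%. That is no more than the 12.9% of all genes at this level. H2afj was lowest, at 0.091. H3f3b, the most abundant, had 0.280. A histone gene that is classed as independent of replication was thus the member whose level followed the Mcm genes most closely among those of at least 5 CPM.

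The summed level of 7 mitotic genes named in the study (Cdk1, Ccnb2, the kinases Aurka and Aurkb, and the centromere genes Cenpa, Cenpe and Cenpf) gave a second reading of the cycle. Cell 11 was lowest, with 33.7 CPM, and cell 9 highest, with 3725 CPM, and its rho with the Mcm sum was 0.650, so the readings are not independent. The replication-dependent sum had rho -0.559 with it, -0.664 to -0.427 with each cell left out, -0.455 without cells 3 and 10, and -0.070 without Hist1h2bc. Hist1h1c (-0.755) and Hist1h2bc (-0.657) were the 2 of 5 replication-dependent genes of at least 5 CPM at or under -0.5, where 6.01% of genes were. Hist1h4d was at 0.783, H2afz at 0.881 and H2afv at 0.678, where 15.3% of genes reached 0.5. The 3 cells with the highest mitotic sums, 9, 5 and 8, were also among the 4 with the least Hist1h2bc and the 3 with the least Hist1h1c. The remaining cell low in Hist1h2bc, cell 6, had a mitotic sum of 344 CPM.

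The factors that make and carry histone mRNA and protein were read from lists. Slbp, which binds the stem-loop, was lowest in cell 4 (15.1 CPM), had a median of 39.1 CPM and was highest in cell 2 (309 CPM). Its rho was 0.818 with the Mcm sum and -0.133 with the replication-dependent sum, but 0.734 with Hist1h4d and -0.238 with Hist1h2bc. In the list of histone mRNA synthesis and processing, 9 of 20 genes of at least 5 CPM (45%) reached a rho of 0.5 with the Mcm sum, where 12.9% of all genes at this level did, among them Npat (0.608), the activator of histone gene transcription, Casp8ap2 and Lsm11. The list also holds genes of the entry into S phase that are not particular to histones, and 3 of the 9 were of that kind, namely Ccne1 (0.706) and Ccne2 (0.754), which encode cyclin E, and their kinase Cdk2 (0.769), whereas E2f1 was at 0.371. The rest were Slbp, Eri1 (0.909) and Cstf2 (0.685). Of the same 20 genes none reached 0.5 with the replication-dependent sum, where 3.11% of genes did. The highest was Lsm10, at 0.497, and the lowest Lsm11, at -0.364. Both are parts of the U7 particle that cuts the mRNA after the stem-loop, and they lay at opposite ends.

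Histone chaperones, which escort histones to chromatin, gave 11 of 21 genes of at least 5 CPM (52.4%) at 0.5 or more with the Mcm sum, against the same 12.9% of all genes. Nasp, a carrier of H3 and H4, was at 0.930, Asf1b at 0.867, and both Chaf1a and Chaf1b, subunits of the factor that loads histones behind the fork, at 0.825. Daxx (-0.287) and Atrx (0.343), which load H3.3, did not reach 0.5, and neither did Rbbp4 (0.007). Hira, under the limit of 5 CPM at a mean of 1.24 CPM, was at 0.493. With the replication-dependent sum, Rbbp4 and Ipo4 were highest, at 0.531 each, and Hjurp, the carrier of Cenpa, was lowest, at -0.545. H3f3b was the 1 of 9 replacement genes at -0.5 or lower with that sum, where 9.39% of genes were. Cenpa, the H3 variant of centromeres, was at 6.85 CPM in cell 12, at a median of 66.5 CPM and at 489 CPM in cell 5, with rho 0.182 to the Mcm sum and 0.790 to the mitotic sum, of which it is a part. For comparison, of 11 other replication genes of at least 5 CPM 10 reached 0.5 with the Mcm sum (90.9%).

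Promoter sequences are shown for 3 members that went with the Mcm sum and for Hist1h1c, which did not. They run from 250 bases before to 50 bases after the start in the RefSeq table on GRCm38.p6, in the direction of the gene. Capitals mark the motifs searched on both strands, which were the TATA box (TATAAA), the CCAAT box (on the other strand it reads ATTGG), ATTTGCAT (the octamer of H2B promoters), AAACACA (of H1 promoters) and the E2F-like TTTGGCGC and TTTCCCGC. None of these motifs overlap in the 4 sequences.
Hist1h4d: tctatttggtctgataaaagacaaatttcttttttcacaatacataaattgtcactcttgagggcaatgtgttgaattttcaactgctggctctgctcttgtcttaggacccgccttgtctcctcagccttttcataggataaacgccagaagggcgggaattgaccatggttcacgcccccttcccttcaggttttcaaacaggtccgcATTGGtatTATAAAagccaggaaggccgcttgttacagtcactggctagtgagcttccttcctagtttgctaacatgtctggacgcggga
Hist1h1e: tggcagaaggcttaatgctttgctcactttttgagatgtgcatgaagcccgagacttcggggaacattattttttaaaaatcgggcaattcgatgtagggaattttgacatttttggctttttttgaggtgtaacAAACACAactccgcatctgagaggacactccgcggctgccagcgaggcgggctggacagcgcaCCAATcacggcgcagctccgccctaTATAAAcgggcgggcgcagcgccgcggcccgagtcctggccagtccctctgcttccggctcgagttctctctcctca
Hist1h1c: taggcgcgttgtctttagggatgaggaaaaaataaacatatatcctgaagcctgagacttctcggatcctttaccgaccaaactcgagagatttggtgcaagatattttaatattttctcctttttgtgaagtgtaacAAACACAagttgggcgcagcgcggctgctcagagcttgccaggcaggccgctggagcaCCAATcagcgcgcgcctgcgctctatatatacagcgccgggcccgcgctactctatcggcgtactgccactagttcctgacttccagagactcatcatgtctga
H2afz: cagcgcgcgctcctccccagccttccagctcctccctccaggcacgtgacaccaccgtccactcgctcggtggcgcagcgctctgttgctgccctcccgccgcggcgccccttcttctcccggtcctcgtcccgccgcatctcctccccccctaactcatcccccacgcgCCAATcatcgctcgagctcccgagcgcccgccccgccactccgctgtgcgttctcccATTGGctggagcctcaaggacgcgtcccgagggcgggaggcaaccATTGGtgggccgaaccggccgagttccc

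The windows lie at chr13:23581318-23581617 on the plus strand for Hist1h4d, chr13:23622509-23622808 on the minus strand for Hist1h1e, chr13:23738557-23738856 on the plus strand for Hist1h1c and chr3:137864237-137864536 on the plus strand for H2afz. Hist1h1e and Hist1h1c, which differed in their relation to the Mcm sum, each held 1 AAACACA and 1 CCAAT, and TATAAA was found in Hist1h1e. H2afz held 3 CCAAT motifs. Over the class, CCAAT was in 52 of 61 replication-dependent promoters, against 8 of 10 replacement promoters and 37.9% of all 27025 promoters. It was in all 6 H1, 17 H2A, 16 H2B and 10 H3 promoters but in 3 of 12 H4 promoters. TATAAA was in 35 of 61, against 1 of 10 replacement promoters and 14.2% of all promoters. ATTTGCAT was in 13 of 61, against 1 of 10 replacement promoters and 1.75% of all, and these were 7 H2A and 6 H2B promoters, which face each other in pairs in the clusters and can share a window. AAACACA was in 9 of 61 replication-dependent promoters (14.8%), of which 5 were among the 6 H1 promoters, 2 were of H2A and 2 of H2B genes, and in 1 of 10 replacement promoters, against 7.14% of all. TTTGGCGC was in 0 of 61 (0.537% of all) and TTTCCCGC in 1 of 61 (1.11% of all). A match is a description of letters in the window only.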

How the data were processed

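Full-length cDNA of 12 single cultured CPCs was made by the authors with the Smart-Seq v4 kit and sequenced as Nextera XT libraries. The deposited values are raw counts of uniquely mapped reads per gene and cell, which the authors mapped to mm10 with STAR 2.5.2b. The counting program, its annotation and its strand rule are not given in the sources used here. From the deposited counts, CPM was computed over the total of each cell (3453708 to 5690184) and per-length levels with exon lengths of GENCODE vM21, in which 84 of 84 members matched.

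Correlations and CVs covered genes with a count in at least 3 cells. Stem-loops, 75-base uniqueness (across GENCODE transcripts, not the genome) and promoter motifs (RefSeq, 75 members with a promoter) were searched by text. TMM factors came from edgeR and were used for scaling only. Thinning drew counts without replacement with a fixed seed. Poisson intervals were exact, at 95%. With 1 group, no test was made. Of the steps, the rho per gene with the Mcm sum and the CV were tested on simulated data. The members, the lists and the rule for named genes (the 12 most abundant replication-dependent genes, the other members of at least 5 CPM, extremes of rho and CV, and of the lists Slbp, Cenpa and extremes) were chosen with earlier results of these data known.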

Additional observations from a re-analysis of the deposited data

How the results depend on the processing

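Of 65 alternatives to the 11 main values, other than leaving out 1 cell, 53 moved the value by less than its spread, 10 by more and 2 turned its sign. The spread was 1 SD over cells or genes, a factor of 1.5 for counts, and for a correlation its range with each cell left out. At 10 counts or more, 30 replication-dependent genes were detected, by construction fewer. Without its most abundant member the median replacement sum was 991 CPM in place of 1966, and the median replication-dependent sum 97.5 CPM in place of 243, a move of over 1.5 times that lay within the SD of 260 CPM. The ratio per kilobase, 4.14, was 8.44 with no division by length, also within its SD of 9.34. The rho of the replication-dependent sum with the Mcm sum turned to 0.028 without Hist1h2bc and to 0.210 without Hist1h2bc and Hist1h1c, and was -0.067 without cells 3 and 10, and its rho with the mitotic sum was -0.070 without Hist1h2bc. The replacement sum against the Mcm sum gave an r of 0.514 on CPM and 0.747 on log2(CPM + 1), and a rho of 0.867 without cells 2 and 12. A rho of at least 0.6 with the Mcm sum was reached by 3 of 41 replication-dependent genes (7.32%), where 7.21% of all genes did, 1 gene reached 0.5 at a mean of at least 5 CPM, and 2 of 9 replacement genes (22.2%) reached 0.4, where 18.3% of all genes did. For the gene removals the change follows from their construction; otherwise the cause was not tested. Settings with cells 3, 10 or 11 left out of sums, counts and single CVs, without 2 genes or without cells 2 and 12 were added after the data had been seen. TMM and thinning kept the sign of each correlation.

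With each cell left out, the median replication-dependent sum ran from 234 to 252 CPM, the replacement sum from 1837 to 2096 CPM, and their ratio per kilobase from 3.36 to 4.91. For 7 single members, 41 of 42 alternatives to their 14 correlations stayed within the range given by leaving out cells, and 1 moved past it; H1f0, at 0.147 with the mitotic sum, ran from -0.055 without cell 3 to 0.282 without cell 10. No paired analysis was possible because the 12 cells form 1 group. Depth limits the replication-dependent genes under about 3 counts per cell, and the capture of poly(A) RNA limits what can be read from that class. Reads that fit more than 1 place were not counted, and how many were lost per gene was not measured.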

Other observations

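The genes outside the histone families whose ranks over the 12 cells were most like those of the replication-dependent sum, among 8480 genes that averaged 10 CPM or more, were Tspan17 (rho 0.860), Atp6v0d1 (0.853), Mien1 (0.839), Plekho1 (0.832) and Ninj1 (0.832). Atp6v0d1 encodes a subunit of the proton pump of lysosomes. These are the extremes of 8480 values over 12 cells and are given as a description.

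The Hist genes on chromosome 13 lie in stretches with unequal signal. In chr13:23531050-23934851, 25 of 31 genes were counted and their mean levels summed to 253 CPM, led by Hist1h2bc. In chr13:21715763-22043676, 19 of 23 genes were counted and the sum was 15.6 CPM, led by Hist1h4i. The 10 genes on chromosome 3 gave 3.58 CPM, of which 4 were counted.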
